A study of Mus musculus with 12 samples.

Results

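Genes that restrain the RAS to ERK cascade, and also Etv5, were compared across 3 lines of murine acute myeloid leukaemia cells. The list held 10 genes, namely the dual-specificity phosphatases Dusp1, Dusp2, Dusp4, Dusp5 and Dusp6, the Sprouty genes Spry1 and Spry2, the Spred genes Spred1 and Spred2, and the ETS factor gene Etv5. Every probe set that the platform annotation assigned to 1 of these genes alone was taken, which gave 18 probe sets for 9 genes among 28898 single-gene probe sets for 17097 genes. Expression of Dusp5 was not analysed here, and 2 probe sets shared by Etv5 and Scpep1 were kept apart. Probe sets of a gene are numbered by their mean over all arrays, with probe set 1 the brightest.

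The TB13 and TB14 lines carried, by their labels, Trib1 and also Bcl11a, which encodes a zinc finger transcriptional repressor. The line called Trib1 was labelled with Trib1 alone, the gene of a pseudokinase. All 3 lines grew untreated in IMDM with 10% fetal bovine serum and interleukin-3 at 5 ng per ml. Each line was read on 4 arrays from biotin-labelled cRNA of 100 ng total RNA. Nothing in the labels says that the arrays of a line came from separate cultures, so p-values reflect array-to-array spread alone, and that spread may be technical. There was 1 line without Bcl11a, and the labels say neither how the genes were introduced nor whether a line was clonal.

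In this cascade, growth factor and cytokine receptors activate RAS, which acts through RAF and MEK kinases on the ERK kinases. Active ERK induces genes that then dampen it: dual-specificity phosphatases remove the activating phosphates from ERK and its relatives, while Sprouty and Spred proteins act at the level of RAS and RAF. Interleukin-3 signals partly through this cascade in myeloid progenitors, and Trib1 is known to bind MEK1.

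Promoter sequence was read for the 3 phosphatase genes on which the comparisons below turn, as the 250 bases before the annotated gene start, written 5′ to 3′ on the strand of the gene (RefSeq, GRCm38.p6). The windows are chr10:99262981-99263230 on the plus strand for Dusp6, chr17:26508473-26508722 on the minus strand for Dusp1 and chr2:127335909-127336158 on the plus strand for Dusp2. Capitals mark the ETS core GGAA or its complement TTCC in Dusp6 and Dusp2, and the cyclic AMP response element (CRE) TGACGTCA in Dusp1.
Dusp6: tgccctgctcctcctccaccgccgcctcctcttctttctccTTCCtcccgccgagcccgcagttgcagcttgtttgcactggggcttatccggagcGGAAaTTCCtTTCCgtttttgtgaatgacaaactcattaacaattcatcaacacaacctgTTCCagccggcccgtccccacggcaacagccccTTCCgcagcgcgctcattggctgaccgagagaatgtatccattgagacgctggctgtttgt
Dusp1: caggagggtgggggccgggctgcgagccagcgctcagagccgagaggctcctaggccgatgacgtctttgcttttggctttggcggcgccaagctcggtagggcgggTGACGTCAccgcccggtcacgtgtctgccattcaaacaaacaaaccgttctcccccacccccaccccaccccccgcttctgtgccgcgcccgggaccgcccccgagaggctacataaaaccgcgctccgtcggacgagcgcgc
Dusp2: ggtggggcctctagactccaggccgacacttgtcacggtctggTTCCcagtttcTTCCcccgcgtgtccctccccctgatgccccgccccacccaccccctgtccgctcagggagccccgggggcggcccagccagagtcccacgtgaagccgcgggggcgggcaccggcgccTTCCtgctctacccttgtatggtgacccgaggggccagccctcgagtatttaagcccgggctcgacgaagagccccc
The Dusp6 stretch held 6 ETS cores, 3 of them side by side, the Dusp2 stretch held 3, and the CRE of Dusp1 began 143 bases before the start. Motifs were searched on both strands of windows of 300 bases, which add 50 bases after the start, in 32851 RefSeq promoters. The CRE was present in 1.79% of them, the AP-1 motif TGACTCA in 5.2%, the ETS core with its flank CCGGAA in 14.9% and the bare core GGAA, which lies within CCGGAA, in 96%. Among 10 windows of the listed genes, 1 held the CRE, 0 held TGACTCA, 1 held CCGGAA (Spry2) and 9 held GGAA. These windows were of 9 genes, Dusp5 among them and Dusp4 not, and Etv5 had 2 windows. The number of bare cores was 7 for Spred2, 6 for Dusp6 and for 1 Etv5 window, and 5 each for Spry2 and Spred1. How many cores other promoters held was not counted.

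Array quality bore on the TB13 values. Arrays of 1 line had correlations of 0.9953 to 0.9993 over all probe sets. TB13 arrays had a median intensity of 25.5 to 25.9, and the other 8 one of 20.8 to 21.4, and the upper quartile was 71.8 to 72.5 on the TB13 arrays against 102 to 109 on the others. The 18 hybridization controls, bacterial and phage transcripts added in fixed amounts by the platform's protocol, changed by a log2 median of -0.93 in TB13, with 17 lower, and of 0.0010 in TB14. TB13 changes are for this reason given both on the deposited scale and after quantile scaling, and directions were also read under median scaling, cyclic loess scaling and calibration on the hybridization controls. All log2 changes are of log2(intensity + 12.7), which understates the change of dim probe sets, and none compares the levels of different genes. The brightest Trib1 probe set averaged 34.0 in TB13, 27.4 in TB14 and 25.2 in Trib1; where it lies relative to the introduced sequence is not given, so it did not check the labels.

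The label of myeloid leukaemia was set against 10 myeloid markers, all of them measured. Ptprc, the pan-leukocyte CD45 gene, averaged 1478 in TB13, 1387 in TB14 and 1938 in Trib1. Of the 10, 1 was called higher and 7 lower in TB13 as deposited (3 and 7 after quantile scaling), and 2 higher and 6 lower in TB14. Of all probe sets, 42.3% were called higher and 40.9% lower in TB13 as deposited (32.5% and 31.8% after quantile scaling). In TB14 the shares of all were 18.4% and 12.7%. These shares count every probe set, whereas each marker was read through its brightest. Mpo, the myeloperoxidase gene, ran against most of the list, averaging 853 in TB13, 2296 in TB14 and 226 in Trib1. Itgam, for the integrin CD11b, averaged 32.9 in TB13, 154 in TB14 and 260.5 in Trib1, and Fcgr3, for an Fc receptor, 555 in TB13, 841 in TB14 and 1526 in Trib1. The myeloid markers summed to 6143 to 6320 on the TB13 arrays, 9138 to 9167 on the TB14 arrays and 8594 to 8649 on the Trib1 arrays. Sums for 4 T cell markers were 218 to 268 in TB13, 127 to 132 in TB14 and 138 to 146.5 in Trib1; for 3 B cell markers they were 103.5 to 120.0, 70.6 to 77.7 and 74.6 to 78.5 in the same line order. The 3 epithelial markers summed to 103 to 130.0, 62 to 64.2 and 65.5 to 69.8. The 3 mast cell markers summed to 6267 to 6549 in TB13, 6736 to 6813 in TB14 and 6002 to 6089 in Trib1, almost all of it from Cpa3, which encodes carboxypeptidase A3. Ms4a2, another of these markers and the gene of an IgE receptor chain, averaged 228 in TB13, 631 in TB14 and 74.7 in Trib1, log2 changes of 1.46 in TB13 as deposited (2.09 after quantile scaling) and 2.88 in TB14. The 2 erythroid markers measured summed to 1479 to 1613 in TB13, 1462 to 1492 in TB14 and 849 to 901 in Trib1, nearly all from Hba-a1, an alpha globin gene. The 5 stromal and endothelial markers summed to 315 to 365 in TB13, 605 to 646 in TB14 and 803 to 835 in Trib1, mostly from Pecam1, which leukocytes also express. Their part in the results below was not tested, and in bulk RNA fewer cells of a type and less RNA per cell cannot be told apart.

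Against the Trib1 line, the listed genes did not move as 1 group. Dusp6 and Dusp1 fell in both lines, Dusp2 rose in both, and Etv5 rose in TB14 and fell in TB13, the TB13 fall reversing under calibration on the hybridization controls. As deposited and after quantile scaling Spred1 was lower in TB13, whereas its brightest probe set did not pass the test in TB14. In TB14, 2 of the 18 probe sets were called higher, Dusp2 and Etv5, where 18.4% of all probe sets were, and 7 were called lower, where 12.7% of all were. The lower count was 4 after quantile scaling, beside 12.1% of all, 4 under median scaling, beside 11.2% of all, and 4 without any 1 of 6 arrays (Trib1 arrays 2, 3 and 4, and TB14 arrays 1, 2 and 4). Quantile scaling took the calls of Dusp4 and of Spred1 probe sets 2 and 4, and each of these lost its call in 7 of the 12 fits that left out 1 array. A call needed a Benjamini-Hochberg adjusted p under 0.05 in limma over all 28898 probe sets. With a change of 2-fold or more as well, TB14 had 1 probe set called higher, Dusp2, against 0.602% of all, and 1 called lower, Dusp6, against 0.91% of all. The median log2 change over the 18 probe sets was -0.093 in TB14, against -0.0028 over all probe sets.

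In TB13, 5 of the 18 probe sets were called higher, beside 42.3% of all probe sets, and 11 were called lower, beside 40.9% of all. After quantile scaling 5 were called higher, beside 32.5% of all, and 11 lower, beside 31.8% of all, but Spred2 probe set 1 was lower as deposited and higher after scaling. Calibration on the hybridization controls turned the balance. It called 14 higher, beside 85% of all, and 2 lower, Dusp6 and Dusp1, beside 6.69% of all. Calibrated values are extrapolated for probe sets dimmer than the lowest control reading. In TB13, TB14 and Trib1, 6, 10 and 11 of the 18 averaged below that reading. With 2-fold or more, 4 were lower as deposited, beside 9.24% of all, namely Dusp1, Dusp6 and Spred1 probe sets 1 and 2. After quantile scaling 1 was, Dusp6, beside 2.94% of all. The median over the 18 was -0.40 as deposited, against 0.023 over all probe sets, and -0.38 after quantile scaling, against 0.0095.

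**Figure D1:**
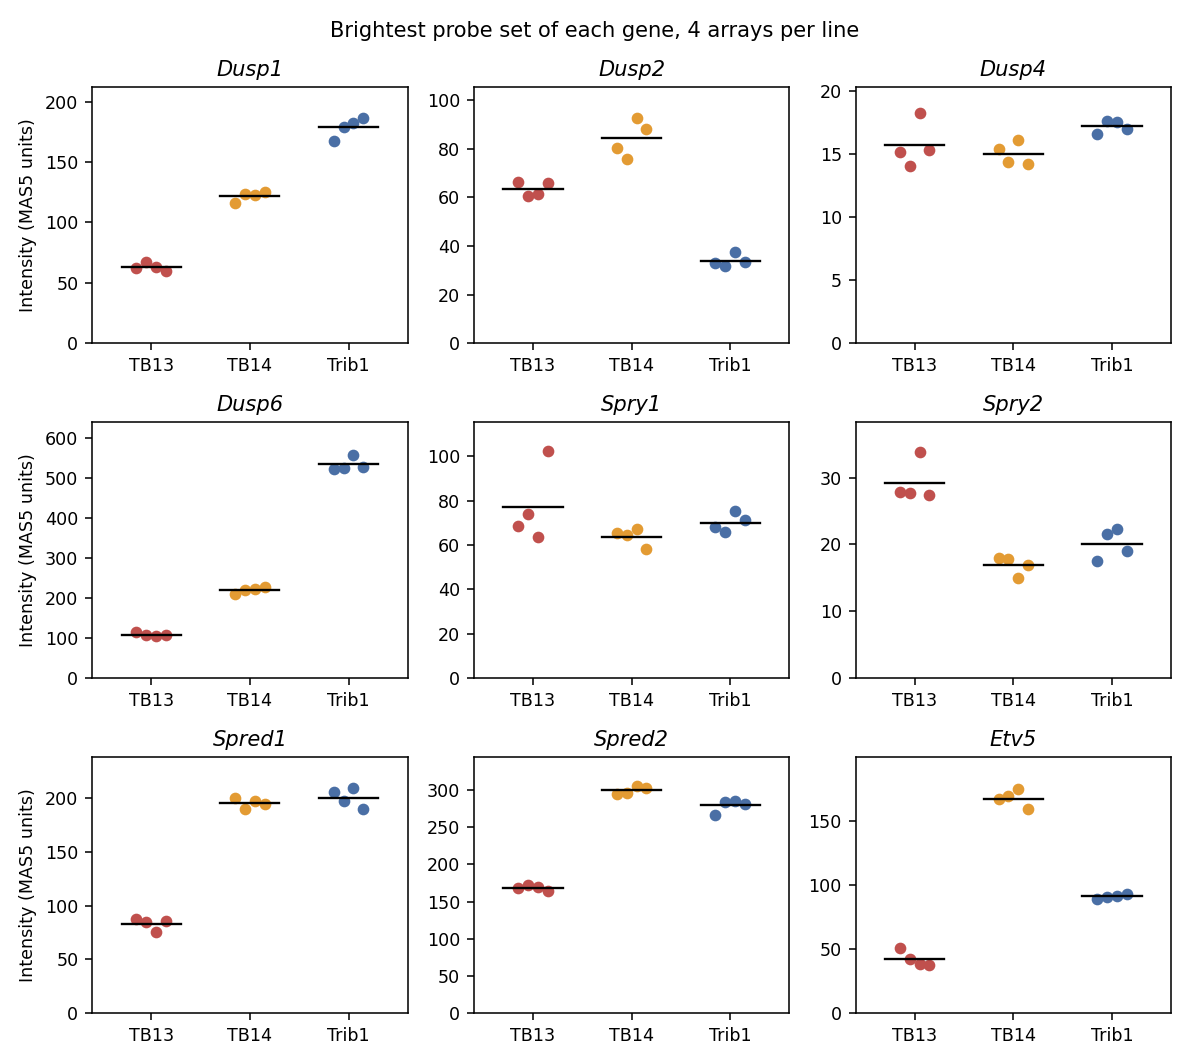
Deposited intensity (linear MAS5 units, axis from 0) of the brightest probe set of each of 9 genes on 4 arrays of TB13, TB14 and Trib1; points are arrays and lines are means. Dusp6 and Dusp1 lie lowest in TB13 and highest in Trib1, Dusp2 lies above Trib1 on all 8 Bcl11a arrays, and Etv5 lies below Trib1 in TB13 and above it in TB14.

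Dusp6 encodes a cytoplasmic phosphatase with a strong preference for ERK and is a standard readout of ERK pathway output. Its intensity was 115, 109, 104 and 107 on the TB13 arrays, 210.4, 220.3, 223 and 227 on the TB14 arrays, and 523, 525, 557 and 527 on the Trib1 arrays. The 3 lines did not overlap, with TB13 lowest and Trib1 highest. Mean intensity was 109 ± 4.64 in TB13 and 220.3 ± 7.21 in TB14 (SD, n = 4 each), or 20.4% and 41.3% of the 533 ± 16.3 in Trib1. In TB14 the log2 change was -1.23 ± 0.041 (SE; limma, Benjamini-Hochberg adjusted p = 3.2e-15), and 0.561% of all probe sets had a lower value. In TB13 it was -2.17 ± 0.041 as deposited (limma adjusted p = 3.0e-19) and -1.47 ± 0.042 after quantile scaling. Under all 5 scalings Dusp6 was lower in both lines, at -2.41 to -1.17 in TB13 and -1.29 to -1.21 in TB14.

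Dusp1 encodes an inducible nuclear phosphatase that acts on p38, JNK and ERK kinases. On the TB13 arrays it read 62.6, 67.1, 63.4 and 59.5, on the TB14 arrays 116, 124, 123 and 125, and on the Trib1 arrays 167, 179, 182 and 186. Again the lines did not overlap and stood in the order of Dusp6. The TB14 change was -0.51 ± 0.050 (SE; limma adjusted p = 6.9e-08), a mean at 68.2% of the Trib1 mean, and 2.82% of all probe sets had a lower value. The TB13 change was -1.33 ± 0.050 as deposited (limma adjusted p = 4.0e-15) and -0.90 ± 0.055 after quantile scaling. Dusp1 was lower under all 5 scalings, at -1.56 to -0.20 in TB13 and -0.55 to -0.49 in TB14.

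Dusp2 encodes a nuclear phosphatase found mainly in blood cells, and it moved the other way. Its intensity was 66.4, 60.5, 61.4 and 65.8 in TB13, 80.3, 75.7, 92.7 and 88.3 in TB14, and 33.1, 32.0, 37.5 and 33.3 in Trib1. Every array of both Bcl11a lines lay above every Trib1 array. The rise was 1.05 ± 0.063 in TB14 (SE; limma adjusted p = 2.9e-11), with 99.5% of all probe sets below it, and 0.71 ± 0.063 in TB13 as deposited (limma adjusted p = 2.4e-09). After quantile scaling the changes were 0.90 in TB14 and 0.93 in TB13, and the direction was upward under all 5 scalings. In linear terms the TB14 mean was 2.48 times and the TB13 mean 1.87 times the Trib1 mean.

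Dusp4, for a nuclear phosphatase of ERK, JNK and p38, stayed dim. It read 14 to 18.2 in TB13, 14.2 to 16.1 in TB14 and 16.6 to 17.6 in Trib1, and on 0 of the 12 arrays did it exceed the array median. The TB14 change of -0.11 ± 0.040 passed narrowly (limma adjusted p = 0.0464) and did not pass after quantile scaling. In TB13 the change was -0.0765 (limma adjusted p = 0.0862) as deposited and -0.21 after quantile scaling, where it passed.

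Etv5 encodes an ETS factor of the PEA3 group that ERK signalling is known to induce, and it separated the 2 Bcl11a lines. Its single-gene probe set read 50.6, 42.5, 38.7 and 37.9 in TB13, 167, 169.8, 175 and 159 in TB14, and 89.2, 90.8, 91.8 and 93.4 in Trib1. The 3 lines did not overlap: TB14 was highest and TB13 lowest. The change was -0.92 ± 0.063 in TB13 as deposited (SE; limma adjusted p = 3.6e-11) and -0.82 after quantile scaling. TB14 stood at 0.79 ± 0.063 (limma adjusted p = 2.4e-09), with 99.0% of all probe sets below it. The TB14 rise held under all 5 scalings (0.70 to 0.82), whereas the TB13 change ran from -1.13 to 0.26, reversing under calibration on the hybridization controls. Less the median of all probe sets, the TB13 change was negative under all 5, at -1.02 to -0.40.

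Both probe sets that the platform shares between Etv5 and Scpep1, a serine carboxypeptidase gene, were also highest in TB14. The first averaged 29.7 ± 3.06 in TB13, 55.3 ± 6.61 in TB14 and 27.2 ± 2.36 in Trib1 (SD, n = 4 each). The other averaged 29.7 ± 2.69 in TB13, 64.3 ± 5.93 in TB14 and 32.6 ± 1.11 in Trib1. In both, the TB13 arrays overlapped the Trib1 arrays, so the TB13 fall of Etv5 was seen in its 1 single-gene probe set alone. The 2 probe sets of Scpep1 alone averaged 74.4 and 79.5 in TB13, 70.2 and 131 in TB14, and 105 and 259 in Trib1, so neither was highest in TB14.

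Spred1 encodes a membrane-associated protein that brings neurofibromin, a RAS-GAP, to RAS. Probe set 1 read 87.9, 84.8, 75.2 and 85.7 in TB13, 200.4, 189.9, 198 and 194 in TB14, and 206, 197, 209 and 190.0 in Trib1. TB13 lay below both other lines on every array, and TB14 overlapped Trib1. The TB13 change was -1.15 ± 0.050 as deposited (SE; limma adjusted p = 3.0e-14) and -0.55 after quantile scaling, and the TB14 change was -0.033 ± 0.050 (limma adjusted p = 0.734). Probe set 2 gave -1.16 in TB13 as deposited, -0.54 after quantile scaling and -0.19 in TB14, the last passing as deposited (limma adjusted p = 0.0374) and not after quantile scaling. Its arrays read 75.3, 105, 85.5 and 81.9 in TB13, 179, 182, 181 and 184 in TB14, and 199, 203, 212 and 218 in Trib1, without overlap.

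The other 3 Spred1 probe sets were dimmer, averaging 10.7 to 22.6 in TB13, 15.4 to 38.6 in TB14 and 20.6 to 34.1 in Trib1. All 3 were called lower in TB13, by -0.51 to -0.41 as deposited and by -0.61 to -0.55 after quantile scaling. In TB14 probe set 3 was at 0.12 and did not pass, probe set 4 was at -0.13 (limma adjusted p = 0.0449) and lost the call after quantile scaling, and probe set 5 was at -0.24 (limma adjusted p = 4.2e-06). The 5 Spred1 probe sets thus gave the same sign in TB13 under these 2 scalings, and differed in sign in TB14. Calibration on the controls turned probe sets 3, 4 and 5 positive in TB13, at 0.80, 0.78 and 0.70. The median over all probe sets was 1.22. These 3 probe sets averaged below the lowest control reading in TB13 and in Trib1, so their calibrated values are extrapolated. Calibration put probe sets 1 and 2 at -0.048 and -0.063, which did not pass (limma adjusted p = 0.494 and 0.367). Under calibration 0 of the 5 were thus called lower.

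Spred2 encodes a close relative of Spred1. Probe set 1 read 168, 172, 169.9 and 164 in TB13, 294, 296, 305 and 303 in TB14, and 266, 284, 285 and 281 in Trib1. As deposited, TB13 lay below Trib1 on every array and TB14 above it. The TB13 change was -0.69 ± 0.038 as deposited (SE; limma adjusted p = 1.2e-12) and 0.089 after quantile scaling, so its sign depended on the scaling. The TB14 change was 0.098 ± 0.038 (limma adjusted p = 0.0549). Probe sets 2, 3 and 4 were higher in TB13, at 0.37, 0.25 and 0.32, of which probe set 2 kept its call after quantile scaling (0.37). Probe set 5, above the array median on 0 of 12 arrays, was at -0.13 in TB13, and all 4 dimmer probe sets missed the threshold in TB14.

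Spry1, whose product inhibits receptor tyrosine kinase signalling to RAS, read 68.4, 73.9, 63.8 and 103 in TB13, 65.6, 64.3, 67.0 and 58.4 in TB14, and 68.0, 65.8, 75.2 and 71.1 in Trib1. The lines overlapped, with 1 TB13 array above the rest. The change was 0.10 ± 0.091 in TB13 (SE; limma adjusted p = 0.302) and -0.11 ± 0.091 in TB14 (limma adjusted p = 0.446). Quantile scaling put TB13 at 0.52, which passed, while median scaling put it at -0.12.

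Spry2, for another Sprouty protein, had 2 dim probe sets that disagreed in TB13. Probe set 1 read 27.8, 27.7, 33.8 and 27.4 in TB13, 18, 17.8, 15 and 17.0 in TB14, and 17.5, 21.6, 22.4 and 19.0 in Trib1. Probe set 2 read 16.4, 14.5, 13.2 and 16.2 in TB13, 11.9, 13.6, 11.8 and 10.7 in TB14, and 23.9, 21.9, 25 and 24.0 in Trib1. In TB13 the first lay above Trib1 on all arrays (0.35 as deposited, 0.19 after quantile scaling) and the second below it on all arrays (-0.39 and -0.53). Both TB13 values passed under both scalings. In TB14 probe set 2 fell by 0.56 ± 0.044 (SE; limma adjusted p = 1.9e-09), and probe set 1 was at -0.14 (limma adjusted p = 0.0645). They exceeded the array median on 6 and 4 of the 12 arrays.

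**Figure D2:**
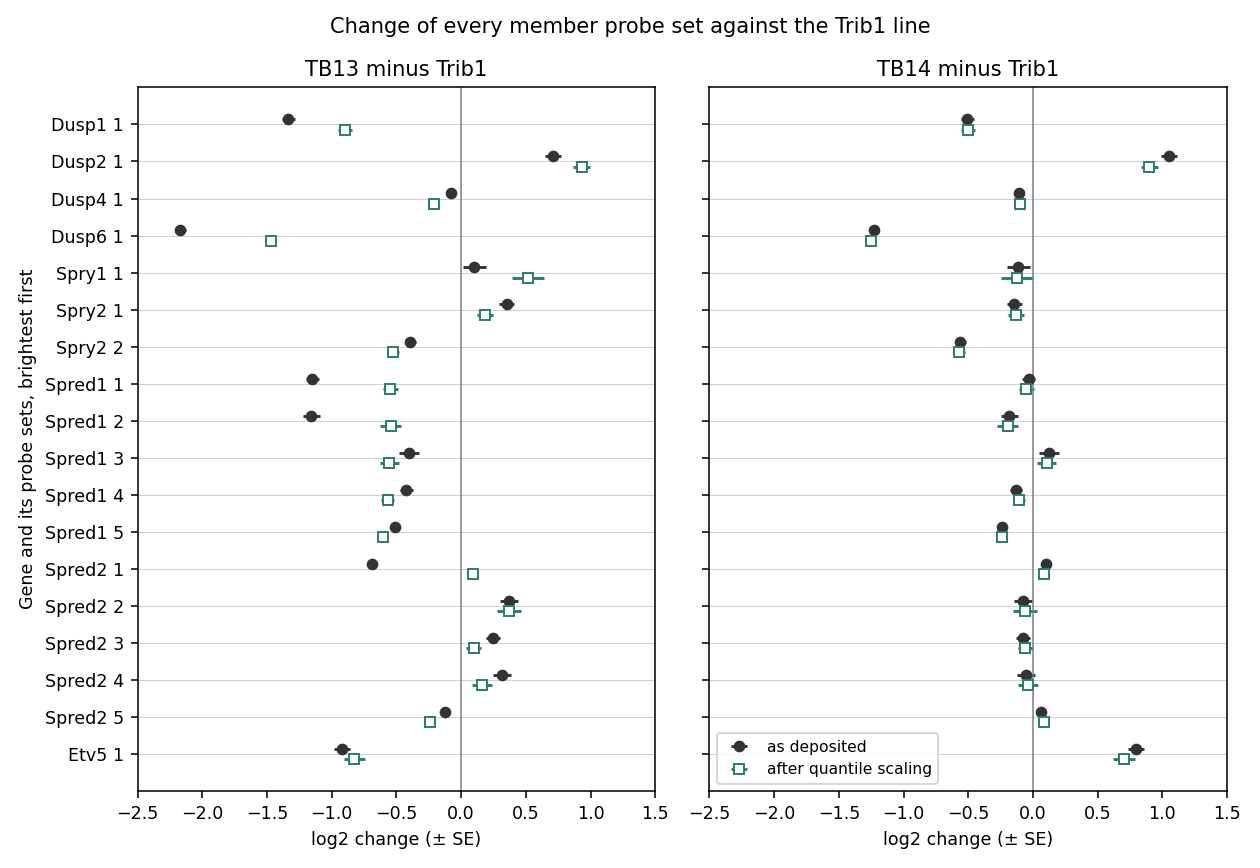
Log2 change (± SE from limma) of all 18 probe sets in TB13 and in TB14 against Trib1, with filled circles for deposited values and open squares for values after quantile scaling. The 2 scalings lie close together in TB14 and part in TB13, where Spred2 probe set 1 is at -0.69 as deposited and 0.089 after scaling.

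The hybridization controls, transcripts that the cells did not make, were set beside the listed genes. Spred1 probe set 1 averaged 83.4 in TB13 and 200.5 in Trib1, and the control nearest to it in Trib1 brightness averaged 81.8 in TB13 and 199.6 in Trib1. The log2 change was -1.15 for Spred1 and -1.17 for that control. For Dusp1, at -1.33, the nearest controls changed by -1.17 and -1.38. Etv5, at -0.92, stood beside controls at -1.05 and -1.36, and Spred2, at -0.69, beside controls at -1.14 and -1.13. Dusp6, at -2.17, lay below its nearest controls, which were at -0.78 and -1.10. Dusp2 rose, while the 2 dimmest controls, both brighter than it in Trib1, were at -0.80 and -1.05. In TB14 the controls nearest to these genes changed by -0.028 to 0.077. The lowest control reading on any array was 24.8 in TB13, 56.8 in TB14 and 54.0 in Trib1. In the same lines 6, 10 and 11 of the 18 probe sets averaged below that reading. What set the TB13 arrays apart was not tested.

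**Figure D3:**
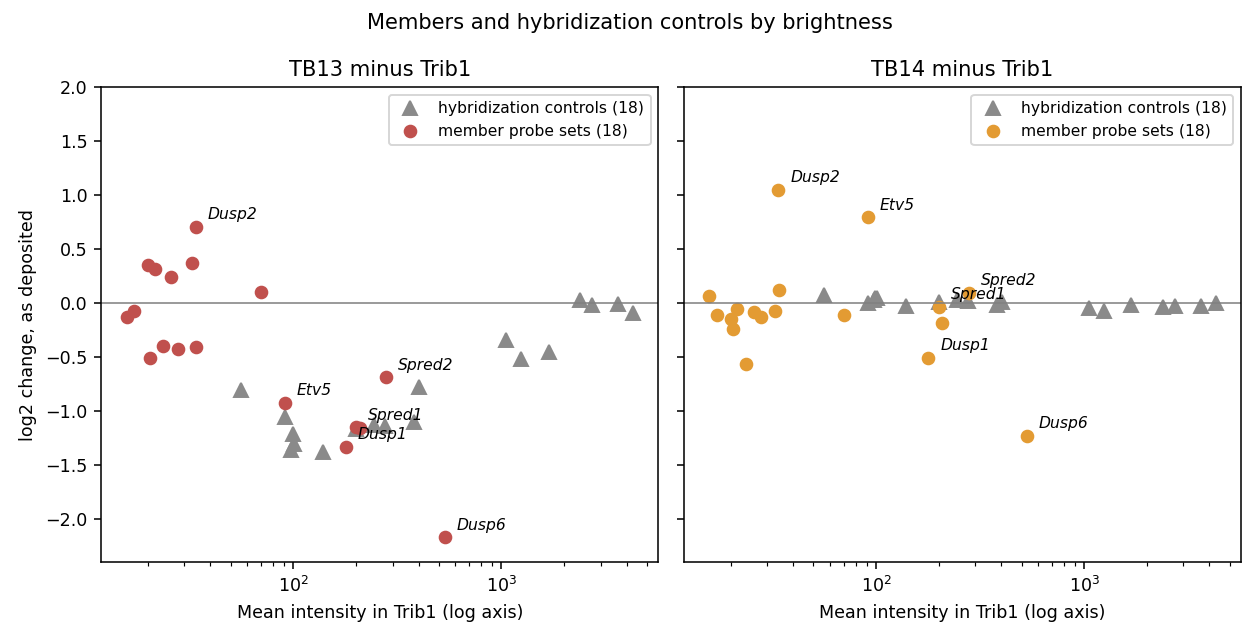
Log2 change as deposited against mean intensity in Trib1 (log axis) for the 18 probe sets (circles) and the 18 hybridization controls (triangles), in TB13 and in TB14. In TB13 Spred1 and Dusp1 lie among controls of like brightness, at -1.38 to -1.13, and Dusp6 lies below them, whereas in TB14 the controls lie near 0 and Dusp6, Dusp1, Dusp2 and Etv5 stand away from them.

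Weighting both Bcl11a lines equally against Trib1, the contrast the series' design names, 2 of 18 probe sets were called higher, beside 32.2% of all, and 9 lower, beside 34.5% of all. Calibration gave 13 higher, beside 83.1% of all, and 3 lower, beside 7.15% of all. On the deposited scale, leaving out 1 array moved the higher count between 1 and 4. Shares of all probe sets were not computed for those fits. Dusp6 was at -1.70, Dusp1 at -0.92 and Dusp2 at 0.88. By their brightest probe sets, these 3 genes alone had all 8 Bcl11a arrays on 1 side of the range of the Trib1 arrays. Of the dimmer probe sets, Spry2 probe set 2 and Spred1 probe sets 2 and 5 lay below that range on all 8. Etv5 and Spred2 probe set 1 lay below it on every TB13 array and above it on every TB14 array. Etv5 was at -0.064 (limma adjusted p = 0.301), the mean of its opposite changes. When each line counted as 1 sample, limma called 0 of 18, and 1 was lower at an unadjusted p under 0.05. That fit called 0.0381% of all probe sets.

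TB14 was also set against TB13 directly. As deposited 11 of 18 probe sets were called higher in TB14, beside 41.5% of all, and 6 lower, beside 42.7% of all. After quantile scaling 10 were higher, beside 33.9% of all, and 5 lower, beside 32.4% of all. Calibration left 1 higher, Etv5, beside 8.27% of all, and 16 lower, beside 82.9% of all. Etv5 had the largest difference of the 18, 1.72 ± 0.063 (SE; limma adjusted p = 2.4e-15), and 1.53 after quantile scaling, and it was higher in TB14 under all 5 scalings. Spred1 probe set 1 differed by 1.12 as deposited and 0.49 after scaling, Dusp6 by 0.94 and 0.22, and Dusp1 by 0.83 and 0.40. For Dusp2 the difference was 0.34 as deposited and -0.034 after scaling, where it no longer passed, and for Spred2 probe set 1 it was 0.79 and -0.0065. Calibration on the controls turned Dusp6 to -0.12 and Dusp1 to -0.34, beside a median of -1.28 over all probe sets. The TB13 and TB14 contrasts share the Trib1 arrays, so they are given side by side and not correlated.

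Other genes of the cascade were counted by role, each through its brightest probe set. Beside the TB14 counts below, 18.4% of all probe sets were called higher and 12.7% lower. Beside the TB13 counts, 42.3% and 40.9% were as deposited, and 32.5% and 31.8% after quantile scaling. These shares count every probe set, dim ones included, so they are not a like measure for counts by brightest probe set. Shares over the brightest probe set of every gene were not computed. All 5 remaining Sprouty, Spred and PEA3 genes were measured, and in TB14 limma called 0, with 0 at an unadjusted p under 0.05. In TB13 4 were called higher as deposited and 3 after quantile scaling, at means of 40.2 or less. Of 10 other dual-specificity phosphatase genes, 1 was called higher and 2 lower in TB14. The 2 lower genes were Dusp16 (-0.32) and Dusp10 (-0.39), whose products act mainly on JNK and p38. The higher gene was Dusp19 (0.42), which was at -0.63 in TB13 as deposited and 0.060 after quantile scaling. In TB13 5 of the 10 were higher and 4 lower as deposited, against 2 and 2 after quantile scaling, and Dusp16 was at -1.02 and -0.84 under these scalings.

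The core from RAS to ERK was represented by 9 of 14 listed genes. In TB14 3 were higher and 1 lower, the lower one being Ksr1 (-0.28), a scaffold for RAF, MEK and ERK. In TB13 1 was higher and 8 lower as deposited, against 5 higher and 1 lower after quantile scaling, and the list's median was -0.57 as deposited and 0.17 after scaling. Ksr1 itself was at -0.32 and at 0.23 in TB13. The 3 core genes higher in TB14 were Nras at 0.22, Map2k1 at 0.18 and Map2k2 at 0.14. In TB13 these 3 were at -0.74, -0.57 and -0.69 as deposited, and at 0.016, 0.17 and 0.011 after scaling.

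Among 17 of 19 adaptors, exchange factors and RAS-GAPs, 2 were higher and 7 lower in TB14, and in TB13 5 were higher and 12 lower as deposited, against 5 and 9 after quantile scaling. Rasgrp1, a RAS exchange factor activated by diacylglycerol, averaged 124 ± 10.3 in TB13 and 108 ± 3.38 in TB14, against 324 ± 3.76 in Trib1 (SD, n = 4 each). Its log2 change was -1.48 in TB14 and -1.30 in TB13 as deposited, or -0.56 after quantile scaling. Sos2, another exchange factor, was at -0.29 in TB14, and the RAS-GAP family genes Rasal3 and Rasa3 were at -0.25 and -0.41. The 3 were at -1.15, -1.37 and -1.02 in TB13 as deposited and at -0.38, -0.72 and -0.26 after scaling. The 2 genes higher in TB14 were Cblb at 0.28 and Grb2 at 0.13. In TB13 Cblb was at 0.36 as deposited and 0.83 after scaling, and Grb2 at -0.43 and 0.19.

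Growth factor receptor genes (11 of 12 measured) gave 3 higher and 4 lower in TB14. In TB13 there were 3 higher and 7 lower as deposited, against 4 and 6 after quantile scaling. Il3ra, the alpha chain of the receptor for the interleukin-3 in the medium, averaged 42.0 ± 2.90 in TB13 and 57.0 ± 0.903 in TB14, against 119 ± 3.86 in Trib1. Its change was -0.92 in TB14, and -1.27 in TB13 as deposited or -1.16 after quantile scaling. Csf2rb, also on this list, was at 0.0053 in TB14, which did not pass (limma adjusted p = 0.911). In TB13 Csf2rb was at -0.47 as deposited and -0.27 after scaling. Csf1r, which encodes the M-CSF receptor, was at -1.29 in TB14 and -1.17 in TB13, or -0.77 after scaling. Igf1r and Insr, for the IGF1 and insulin receptors, were at -0.32 and -0.40 in TB14. In TB13 they were at -1.47 and -1.04 as deposited, and at -0.73 and -0.48 after scaling. The 3 receptor genes called higher in TB14 were Kit at 1.04, Csf3r at 0.65 and Met at 0.46. In TB13 these 3 were at 0.050, 0.70 and -1.19 as deposited, and at 0.80, 0.90 and -0.43 after scaling.

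Downstream kinases and ERK-response genes (13 of 15 measured) gave 2 higher and 6 lower in TB14, and in TB13 4 higher and 8 lower as deposited, against 4 and 6 after quantile scaling. Ier3, an immediate early gene whose product is an ERK substrate, averaged 1277 ± 123 in TB13 and 951 ± 16.0 in TB14, against 2707 ± 111 in Trib1. Its change was -1.50 in TB14, and -1.08 in TB13 as deposited or -0.86 after scaling. Mknk1, a kinase activated by ERK and p38, was at -0.62 in TB14, Ier2 at -0.43 and Mcl1, which encodes a survival factor of the BCL2 family, at -0.20. In TB13 they were at -0.89, -0.58 and -0.71 as deposited and at -0.12, -0.059 and -0.34 after scaling, where Ier2 did not pass. The 2 genes higher in TB14 were Rps6ka3 at 0.19 and Mknk2 at 0.14. In TB13 these 2 were at -0.97 and -0.49 as deposited, and at -0.21 and -0.10 after scaling.

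All 9 Egr, Fos and Jun genes were measured, with 1 higher and 5 lower in TB14. In TB13 3 were higher and 6 lower as deposited, against 3 and 4 after quantile scaling. Fos was called higher in both lines, at 0.42 in TB14, and at 0.32 in TB13 as deposited or 0.20 after scaling. Egr3 was at 0.93 in TB13 as deposited, 1.35 after scaling and -0.035 in TB14, the last not passing. Egr1, an immediate early factor, was at -1.88 in TB14 and -2.12 in TB13, Jun at -1.06 and -2.02, Fosl2 at -0.20 and -1.28, and Junb at -0.59 and -0.78; after scaling the TB13 values were -1.40, -1.96, -0.99 and -0.16, the last not passing.

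**Figure D4:**
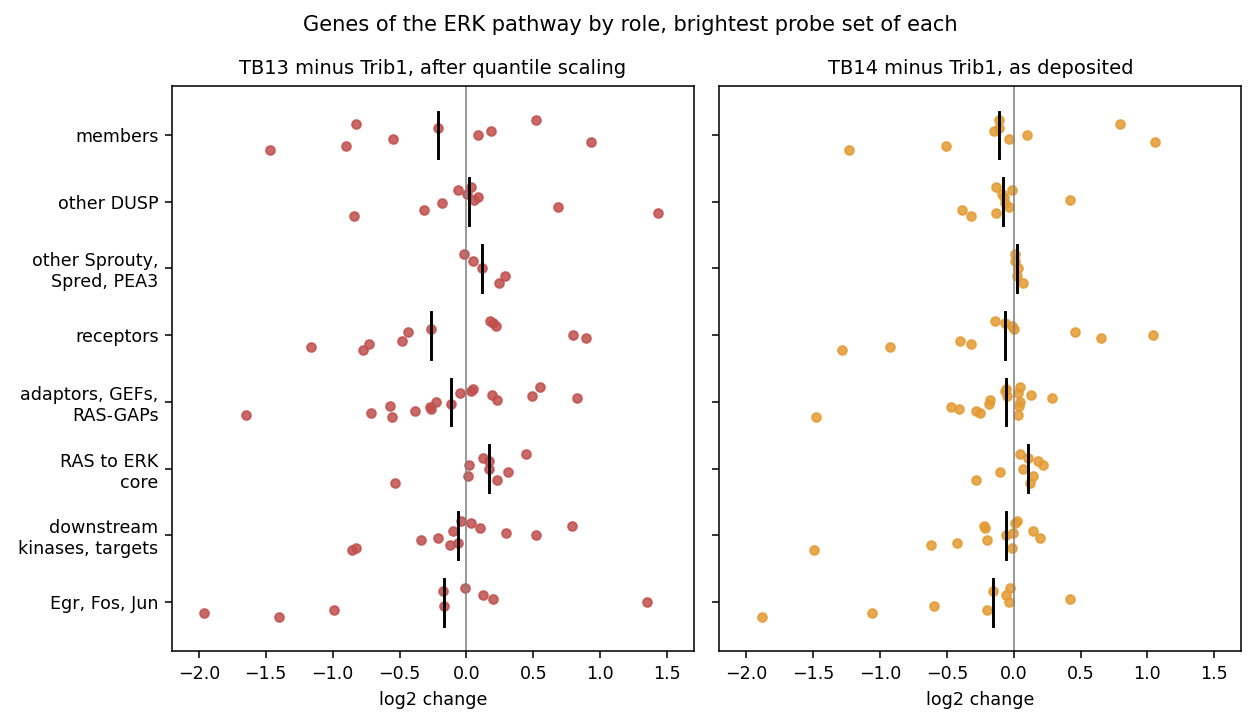
Log2 change against Trib1 of genes of the cascade by role, 1 point per gene (brightest probe set) and a line at each list's median, for TB13 after quantile scaling and TB14 as deposited. The 9 measured genes of the main list spread to both sides of 0 in both lines, with medians of -0.21 in TB13 and -0.11 in TB14.

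Genes with a profile most like that of Dusp6 were sought among 11250 genes, by the root mean square difference of log2 values, centred on the Trib1 mean, over the 8 TB13 and TB14 arrays. As deposited they were Pira1 (0.111), Ctss (0.142), Lyst (0.144), Ssh1 (0.159) and Rmnd5b (0.160). After quantile scaling they were Cand2 (0.108), Rnd3 (0.112), Cpt1c (0.123), Ehbp1 (0.129) and Myo10 (0.135), and 0 of the 5 names were the same. Ctss, the cathepsin S gene, averaged 107.5 in TB13, 197 in TB14 and 533 in Trib1, and changed by -2.19 in TB13 and -1.38 in TB14.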

How the data were processed

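Total RNA of 12 samples, 4 for each of 3 lines named in their labels, was read on oligonucleotide arrays. Per the submitters' processing notes the authors made the deposited intensities, which are linear, with MAS5. Neither the scaling target nor the genome build is stated in the labels, and coordinates are those of the RefSeq promoter table. The table held 45141 probe sets. Names came from the platform annotation, with 1 gene for 28898 probe sets, several for 551 and none for 15588, and the 104 controls entered no test.

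Tests used limma 3.58.1 in R 4.3.3, on log2(intensity + 12.7), the added constant being the 25th percentile of all deposited values. All 12 arrays entered 1 model with 3 groups and a variance trend, with no filter on low values, so all 18 probe sets were tested. Each Bcl11a line was set against Trib1, then both lines together, then TB14 against TB13, with Benjamini-Hochberg adjustment over all 28898 probe sets. The genes and lists were chosen with earlier results of these data known, so none gives independent support. Each of the 9 genes with a probe set of its own is described. Other genes named were up to 4 per list, taken by the largest change over both lines. Only genes called in the 3 contrasts with Trib1, with all 8 values on 1 side of the range of the Trib1 arrays, were eligible. Outside this rule, cascade genes called higher in TB14, and also Csf2rb and Egr3, were named after their values were seen. The 5 nearest to Dusp6 under each of 2 scalings were named as well. Lists of other genes were counted by gene, through the brightest probe set. Ptprc, Cpa3 and the brightest Trib1 probe set were named as markers after their values were seen. Calibration fitted each array to the mean of the 18 hybridization controls by a quadratic curve. Values outside the range of an array's controls took the shift at the nearest end of that range. Calibrated values of dim probe sets are thus extrapolated. The alternatives were 4 other scalings, 2 filters, pseudocounts of 1 and 50, no variance trend, a replicate block, line means, a 2-fold threshold and leaving out arrays. Precision is set by the number of arrays, which carry no read depth. The code was tested on simulated data, and figures were drawn with matplotlib 3.10.9.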

Additional observations from a re-analysis of the deposited data

Results flagged for a closer look

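Among 54 sets of 4 arrays (18 probe sets in 3 lines), 3 had 1 array far from the other 3, with a gap above Dixon's critical share of the range. Chance gives this in about 1 in 20 groups. They were Dusp6 at 557 on the third Trib1 array, Spry2 probe set 1 at 33.8 on the third TB13 array and Spred1 probe set 5 at 9.97 on the fourth TB13 array.

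TB14 differed from TB13 in 14 probe sets with the same sign and a call both as deposited and after quantile scaling. As deposited the log2 differences were 1.72 for Etv5, 0.94 for Dusp6, 0.83 for Dusp1, -0.21 for Spry1 and -0.50 for Spry2 probe set 1. Spry1 was at -0.088 without TB13 array 4, lost its call without that array or without TB14 array 2 or 4, and turned to 0.032 under median scaling. Calibration on the hybridization controls reversed Dusp6, Dusp1, Spred1 probe sets 2 to 5 and Spred2 probe set 5. As deposited, the Spred1 differences were 1.12, 0.97, 0.53, 0.29 and 0.26 in probe sets 1 to 5. The deposited Spred2 differences were -0.44, -0.32, -0.37 and 0.19 in probe sets 2 to 5.

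The 2 probe sets shared by Etv5 and Scpep1, which entered no test, averaged 55.3 and 64.3 in TB14, above every array of the Trib1 line.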

How the results depend on the processing

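The counts of the 18 probe sets called higher and lower were 5 and 11 for TB13, 2 and 7 for TB14, 2 and 9 for both lines together, and 11 and 6 for TB14 minus TB13. Quantile scaling gave 4 lower in TB14 (12.1% of all probe sets). Median scaling gave 3 higher in TB13 (18.3%), 4 lower in TB14 (11.2%) and 1 higher over both lines (13.1%). Cyclic loess gave 3 higher in TB13 (30.1%) and 3 lower in TB14 minus TB13 (30.8%). Calibration on the hybridization controls, which moved the median of all probe sets to 1.22 in TB13, -0.059 in TB14, 0.59 over both lines and -1.28 in TB14 minus TB13, gave 14 higher and 2 lower in TB13, 13 and 3 over both lines, and 1 and 16 in TB14 minus TB13. It called 85% of all probe sets higher and 6.69% lower in TB13, against 42.3% and 40.9% as deposited; median scaling gave 18.3% and 56.8%. Over both lines calibration gave 83.1% and 7.15%, and median scaling 13.1% and 44.1%. For TB14 minus TB13 they gave 8.27% and 82.9%, and 58.9% and 18.2%. Keeping only probe sets with a mean above 50, which leaves fewer to test, gave 1 and 6 in TB13 and 3 lower in TB14. It gave 1 and 5 over both lines, and 7 and 1 in TB14 minus TB13. The share of all probe sets called under this filter was not computed. A 2-fold threshold gave 0 and 4 in TB13 (0.467% and 9.24% of all probe sets) and 1 and 1 in TB14 (0.602% and 0.91%). It gave 0 and 1 over both lines (0.187% and 1.55%), and 2 and 0 in TB14 minus TB13 (10.4% and 0.55%). With quantile scaling as well it gave 0 and 1 in TB13 (2.54% and 2.94%) and 0 and 1 in TB14 (0.491% and 0.824%). That setting gave 0 and 1 over both lines (0.239% and 0.924%), and 1 and 0 in TB14 minus TB13 (2.95% and 2.65%). With each line as 1 sample limma called 0 and 0 over both lines, with 1 lower at an unadjusted p under 0.05. The other filter, both pseudocounts and the model without a variance trend kept all counts within 1.5 times. Apart from the smaller number tested or the stricter threshold, the cause was not tested.

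Some log2 changes reversed. Those under calibration are extrapolated where a probe set was dimmer than the lowest hybridization control. Under quantile scaling Spred2 probe set 1 was at 0.089 in TB13 and 0.085 over both lines, and TB14 minus TB13 was -0.034 for Dusp2, 0.11 for Dusp4 and -0.0065 for Spred2 probe set 1. Under median scaling TB14 minus TB13 was 0.13 for Dusp4 and 0.032 for Spry1. Under cyclic loess Spred2 was at 0.078 (probe set 1) and -0.024 (probe set 3) in TB13. Over both lines Spred2 probe set 1 was at 0.059 and Etv5 at 0.18, and TB14 minus TB13 was 0.15 for Dusp4, 0.028 for Spry2 probe set 2 and -0.0385 for Spred2 probe set 1. Under calibration TB13 was at 1.13 for Dusp4, 0.81 for Spry2 probe set 2, 0.80, 0.78 and 0.70 for Spred1 probe sets 3 to 5, 0.31 and 1.08 for Spred2 probe sets 1 and 5, and 0.26 for Etv5. Over both lines it was 0.48 for Dusp4, 0.53 for Spry1, 0.096 for Spry2 probe set 2, 0.43, 0.30 and 0.20 for Spred1 probe sets 3 to 5, 0.21 and 0.54 for Spred2 probe sets 1 and 5, and 0.52 for Etv5. TB14 minus TB13 was -0.34 for Dusp1, -0.84 for Dusp2, -0.12 for Dusp6, -0.14, -0.74, -0.98 and -1.01 for Spred1 probe sets 2 to 5, and -0.19 and -1.08 for Spred2 probe sets 1 and 5.

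Leaving out 1 array at a time gave 5 to 5 higher and 11 to 12 lower in TB13, 2 to 3 and 4 to 8 in TB14, 1 to 4 and 8 to 10 over both lines, and 11 to 11 and 5 to 6 in TB14 minus TB13. The TB14 count of lower calls was 4 without Trib1 array 2, 3 or 4 or without TB14 array 1, 2 or 4. The count of higher calls over both lines was 1 without Trib1 array 2 or 4, TB13 array 2 or TB14 array 1 or 2, and 4 without TB13 array 1. Without all TB13 arrays TB14 had 3 higher and 8 lower. Shares of all probe sets called were not computed for fits that left out arrays.

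With the replicate number as a block the counts were 5 and 11 in TB13, 2 and 6 in TB14, 2 and 9 over both lines, and 11 and 6 in TB14 minus TB13. Spred1 probe set 4 in TB14 (-0.13) lost its call under the block. Shares of all probe sets called were not computed under the block. Samples with the same number had deviations that correlated at -0.084 to 0.13, against -0.071 to 0.074 for other numbers. The highest value, 0.13, was between Trib1 array 1 and TB14 array 1. The ranges overlapped, so these values showed no general pairing by number. Whether samples of the same number were handled together was not tested.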
